A study of Mus musculus with 4 samples.

Results

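The m6A sites of injured spinal cord were described from the MeRIP-seq peak list of mice with chronic constriction injury (CCI), and all 33556 peaks of that list were taken, out of 67962 in the CCI and sham lists together. Spinal cord was taken on day 7 after surgery from C57BL/6J mice that were 6 to 8 weeks old. In the CCI group silk ligatures had been tied loosely around the sciatic nerve at several sites, and the sham group underwent the same surgery with no ligature. The study's methods name male mice, and how many mice were pooled for a library is not given in the sources used here. MeRIP-seq captures RNA fragments with an antibody against m6A (the IP library) and compares them with the same fragments before capture (the input library). There was 1 IP library and 1 input library per group, so the values below stand without replicates and are compared between the groups with no test. Each peak carries a fold enrichment, the authors' ratio of IP over input, and 2 fold enrichments can differ through the IP, the input or the borders of the peak. Read counts are not among the deposited values, which leaves the sequencing depth unknown and every fold enrichment without an interval. It could not be checked whether a high ratio came with a very low input, where the ratio is least certain.

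N6-methyladenosine is the most common internal modification of eukaryotic mRNA. It is written in the nucleus by a complex built on METTL3 and METTL14, can be removed by FTO and ALKBH5, and is read by proteins of the YTH family, which act on the splicing, decay and translation of the marked RNA. It is found mostly around the stop codon and in the 3′-UTR, within a short consensus whose core is GGAC. The spinal dorsal horn is the first relay for pain signals from the sciatic nerve, and CCI is a standard model of neuropathic pain.

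Only the first transcribed bases of genes could be read as sequence here, and they are shown because 58.6% of the 5′-UTR peaks of the CCI list covered the start of the named transcript. Of 32851 RefSeq starts (GRCm38.p6), 1216 in 1138 genes lay inside a CCI peak of the same gene name. The letters GGAC, searched on the transcribed strand only, occurred in the first 50 transcribed bases of 22.7% of these starts. The share was 19.8% among the 10607 starts of listed genes that lay outside a peak and 18.9% among all starts. The first transcribed base was A in 30.8% of the starts inside a peak, in 29% of the starts of listed genes outside one and in 34.4% of all starts. The G and C content was 66.4% for starts inside a peak, 64.4% for starts of listed genes outside one and 56.7% for all starts. Among starts of listed genes these shares differ little inside and outside a peak, and a match is not evidence of a methylated base. The following 4 stretches of 30 bases come from starts with GGAC and a high fold enrichment, with GGAC in capitals.
Ybx1, chr4:119294464-119294493, minus strand: tcggtagcgggagcggagagcGGACcccag
Gsk3a, chr7:25237808-25237837, minus strand: gccgacggcagagGGACttcatctcccggc
Brsk1, chr7:4690936-4690965, plus strand: cccagccccctggGGACccccggagaagtg
Slc25a28, chr19:43674832-43674861, minus strand: gggccgcgcctgaggcGGACgcaacggggc
Ybx1 encodes a cold-shock RNA-binding protein, and its 328-bp peak had a fold enrichment of 612 in CCI and 336 in sham. Gsk3a encodes a glycogen synthase kinase, and its peak had 579 in CCI and 162 in sham. The start of Brsk1, a kinase of neuronal polarity, had 246 in CCI and 407 in sham, and that of Slc25a28, a mitochondrial iron carrier, had 212 in CCI and 366 in sham. The first 2 starts were thus higher in CCI and the other 2 in sham.

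Each of the 10 CCI peaks with the highest fold enrichment lay on bases that also carried a sham peak. The peak with the highest fold enrichment was in the 5′-UTR of Celf4, which encodes a neuronal RNA-binding protein, with 5410 in CCI and 2020 in sham over nearly the same bases. Necdin (Ndn), an imprinted gene of neurons, followed with 1710 in CCI over a 388-bp 3′-UTR peak (chr7:62349637-62350024). The sham peak there had the same borders and a fold enrichment of 6910, the highest of the sham list, so Ndn was the one gene of the 10 that was more than 2-fold lower in CCI. The 5′-UTR peak of Tnk2, a non-receptor tyrosine kinase, had 1250 in CCI and 2020 in sham. The 3′-UTR peak of Irf2, a transcription factor of the interferon response, had 1110 in CCI and 233 in sham, the widest gap in favour of CCI among the 10 (log2 ratio 2.25).

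This top 10 also held Scaf1, 1600020E01Rik, Kdm6b, Lmtk3 and Fam171a2. Kdm6b encodes a histone H3K27 demethylase, and its 2429-bp peak had 1030 in CCI and 676 in sham with the same borders. Lmtk3, a neuronal kinase, had 958 in CCI over 3680 bp and 564 in sham. Fam171a2, a membrane protein, had 919 in CCI and 1560 in sham. Scaf1, an SR-related splicing factor, had 1250 in CCI over 390 bp, whereas the sham peak on these bases ran over 1588 bp and had 1530, so the 2 values refer to different stretches. The peak listed under 1600020E01Rik (1040 in CCI, 469 in sham) had 45 of its 481 exonic bases inside the transcript of that name and otherwise lay over Pcbp1, a poly(C)-binding protein. The same 10 peaks were also the strongest among the top 10% of the list by IP against input.

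**Figure D1:**
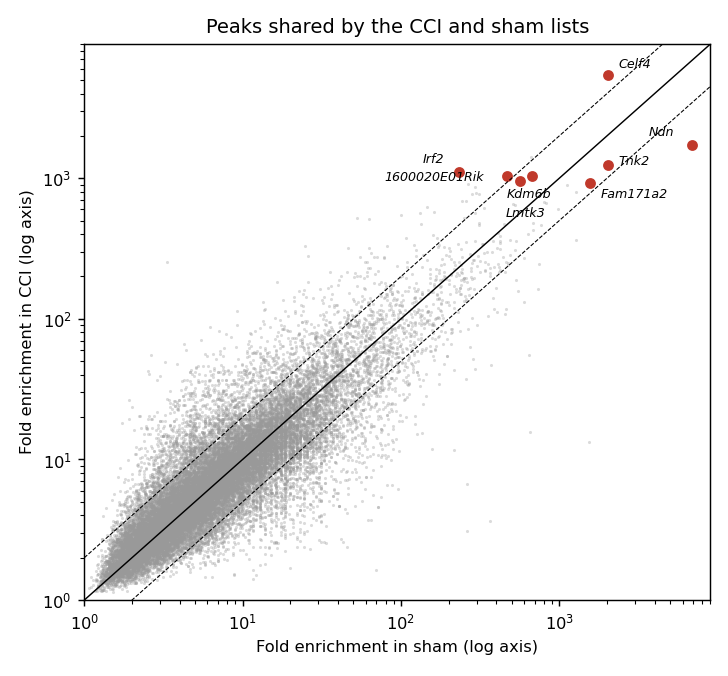
Fold enrichment in CCI against fold enrichment in sham for the 27380 peaks shared by the lists, each point a pair of peaks that are each other's best partner, on log axes. The solid line marks equality and the dashed lines 2-fold. The red points are 8 of the 10 strongest CCI peaks (the Scaf1 peak is not drawn, since its sham partner pairs with another CCI peak), with Celf4, Irf2 and 1600020E01Rik above the upper dashed line and Ndn below the lower one.

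Which peaks were the strongest depended on the list they were taken from. Among the 1000 CCI peaks with the highest fold enrichment (at least 59.3), all 1000 overlapped a sham peak, 964 had a best partner, and the median log2 ratio of CCI over sham was 0.47. Among the 1000 strongest sham peaks (also at least 59.3), 966 had a best partner and the median log2 ratio of CCI over sham was -0.48. Of the 1000 strongest CCI peaks, 597 had a partner that was among the 1000 strongest of sham. The choice of list fixes the sign of these medians, and they are given side by side for that reason. Over all 27380 shared pairs the middle 50% of log2 ratios ran from -0.37 to 0.43. In CCI, 8.59% of shared peaks were at least 2-fold higher and 7.25% at least 2-fold lower, and the share at least 2-fold higher was 30.6% among pairs with a CCI fold enrichment of 50 or more but 1.19% among those between 2 and 5. With pairs taken by their sham value instead, the share at least 2-fold lower in CCI was 28.8% at a sham fold enrichment of 50 or more and 0.58% between 2 and 5. The 5′-UTR pairs spread more widely (SD 0.939, with 11.5% higher and 11.9% lower) than the 3′-UTR pairs (SD 0.756, with 8.57% higher and 6.34% lower). In the strongest 10% of the list by IP against input, 4.92% of 3210 pairs were at least 2-fold higher and 2.52% at least 2-fold lower.

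Genes with many m6A peaks in CCI had longer transcripts, by genomic span, than genes with few. After overlapping peaks of a gene were merged, a gene had a mean of 2.57 peaks and a median of 2. A single peak was found in 4664 genes (37.6%, 95% Wilson interval 36.7 to 38.4%, counting error only), and 100 genes had more than 10. The median genomic span of the longest listed transcript was 13.4 kb in genes with 1 peak, 29.2 kb in genes with 3 to 5 and 124 kb in genes with more than 10. The median fold enrichment of a peak went the other way, from 7.53 in genes with 1 peak to 4.92 in genes with more than 10. The strongest peak of a gene had a median fold enrichment of 7.62 in genes with 1 peak, 15.1 in genes with 3 to 5 and 26.1 in genes with more than 10, and a maximum over more peaks is higher by construction.

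Dystonin (Dst), a giant linker of the cytoskeleton, had 26 merged peaks in CCI and 24 in sham, 23 of the CCI peaks in exons and none with a fold enrichment above 16.7. Ahnak, a giant scaffold protein, had 23 peaks in CCI and 24 in sham, and its highest fold enrichment was 9.68 in both. Pclo (piccolo), a scaffold of the presynaptic active zone, had 20 peaks in CCI and 19 in sham, with a highest fold enrichment of 64.9 in CCI and 81.2 in sham. The clustered protocadherins, cell-surface proteins that give neurons an identity, entered through Pcdhgb2 (19 peaks in CCI, 22 in sham) and Pcdha11 (17 and 16). The transcripts listed under these names spanned 152 kb and 182 kb of chromosome 18. Those of Pcdhgb2 took in the whole span listed for Pcdhgc4, so these counts may hold peaks of other genes of the clusters. Zfhx2, a homeobox transcription factor, had 18 peaks in CCI and 14 in sham, and Fat4, an atypical cadherin, had 18 and 20. Ankyrin-G (Ank3), which organises the axon initial segment, had 17 in CCI and 19 in sham, and its strongest peak had 158 in CCI and 85.6 in sham. The counts in CCI and sham thus lay close together for these genes, but the peaks were not all the same. Before merging, a sham peak lay on the same bases for 19 of 26 CCI peaks of Dst and 19 of 25 of Zfhx2. It did so for 22 of 23 of Ahnak and all 17 of Ank3, while 12.3% of all CCI peaks had no sham peak there.

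**Figure D2:**
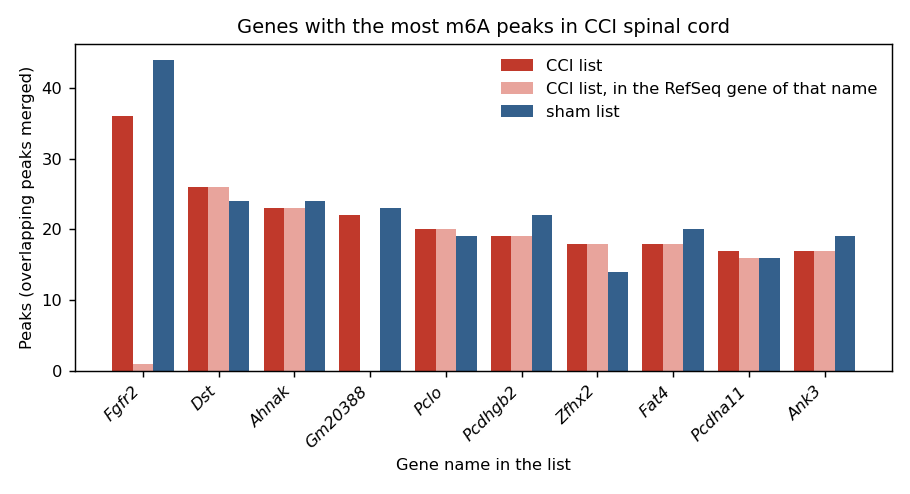
Number of merged m6A peaks (y axis) for the 10 gene names with the most peaks in the CCI list (x axis), with bars for the CCI list, for the CCI peaks that touch the RefSeq gene of that name, and for the sham list. Fgfr2 drops from 36 to 1 when peaks outside the RefSeq gene are set aside, while Dst, Ahnak and Pclo keep 26, 23 and 20. Gm20388, with 22 peaks, shows 0 only because its name has no RefSeq entry.

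For Fgfr2 and Gm20388 in this ranking, the name did not stand for a single gene. Fgfr2, a fibroblast growth factor receptor, headed the list with 36 merged peaks in CCI and 44 in sham, but the transcripts listed under it spanned 2961 kb of chromosome 7 and only 1 of its 36 merged peaks touched the RefSeq gene. By bases, its 37 CCI peaks touched 21 different RefSeq genes, and 1 of them touched none. Each peak counted under the gene with most of its bases, Chst15 and Ctbp2 held 4 peaks each and Plekha1 and Fam53b 3 each. Gm20388, a predicted gene with no RefSeq entry, spanned 4435 kb of chromosome 8, and its 23 peaks touched 11 RefSeq genes, 1 of the peaks touching none. Over the whole CCI list, 1037 of the 32010 peaks whose name has a RefSeq entry (3.24%) lay outside that gene. Restricted to peaks that touch the RefSeq span of the named gene, Dst led with 26 peaks, followed by Ahnak with 23, and 7 of the 10 names remained. Names with no RefSeq entry, such as Gm20388, drop out of this count by definition. A touch of the span does not separate genes that lie within one another, as in the protocadherin clusters. Counting every row of the list, Pcdhgc4 led with 75 rows, which merged to 11 peaks, since 3358 CCI peaks (10%) overlap another peak of the list.

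Peaks were short, and their length followed a grid. The exonic length (bases inside the exonic blocks of a peak) had a median of 211 bp, with the middle 50% of peaks from 150 to 384 bp and a range from 57 to 5695 bp. Of the 33556 peaks, 29715 (88.6%) had a length within 1 bp of a multiple of 30, and 151 bp was the most common with 1701 peaks. Differences in length of less than 30 bp are therefore at the resolution of the calls. A total of 25300 peaks (75.4%) had a single block, and the 8256 peaks that ran over several exonic blocks had a median exonic length of 270 bp and a median genomic span of 2252 bp. Peaks in the 3′-UTR had a median length of 240 bp, and those in exons and 5′-UTRs 210 bp each. Peaks of more than 1000 bp made up 3.92% of 3′-UTR peaks and 2.39% of exon peaks.

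The 10 longest CCI peaks ran from 3508 to 5695 bp. Rai1, a regulator of transcription, carried the longest one, 5695 bp in the 3′-UTR class (chr11:60185125-60190819), with a fold enrichment of 23.1 in CCI and 28.9 in sham. Spen, a transcriptional repressor, followed with 5156 bp in exon 11 of 15, with 36.4 in CCI and 50.9 in sham. Plectin (Plec), a linker of intermediate filaments, had 4589 bp over 3 exonic blocks, labelled exon 31 of 33, with 14.8 in CCI and 14.7 in sham. Celsr3, a cadherin of axon guidance, had 3772 bp, and here the best sham peak covered 1886 bp of it. The peak of Bassoon (Bsn), a presynaptic scaffold, ran over 3745 bp in exon 5 of 12, with 18.3 in CCI and 26.1 in sham. The remaining 5 were Lmtk3 (3680 bp), the H3K4 methyltransferase gene Setd1b (3624 bp), the GTPase regulator Arhgap32 (3539 bp), the neuronal adaptor Nyap1 (3536 bp) and the transcription regulator Tsc22d1 (3508 bp). Nyap1 alone of these 10 was 2-fold apart from sham, with 70.9 in CCI and 34.9 in sham over identical borders. All 10 overlapped a sham peak of the same gene name.

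**Figure D3:**
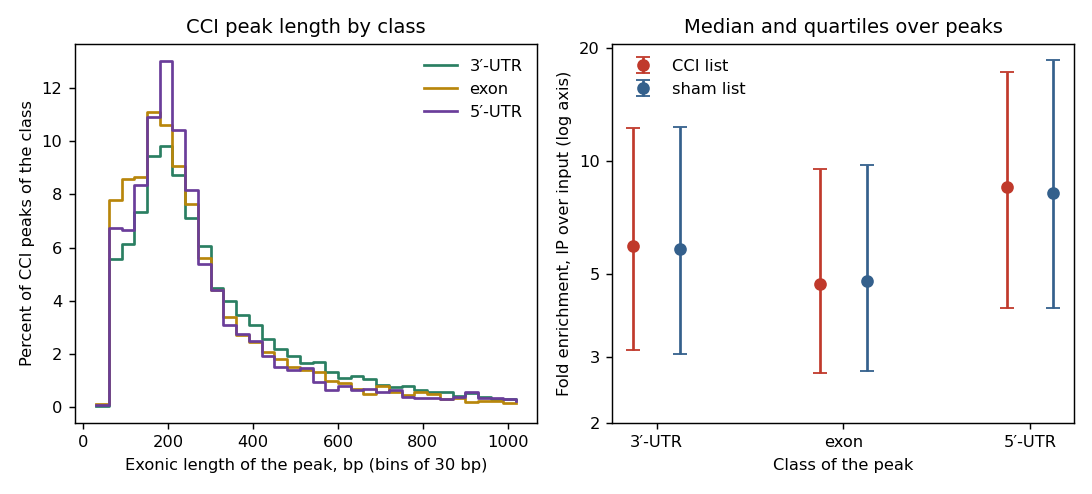
Left, exonic length of the CCI peaks (x axis, bins of 30 bp, longer peaks not drawn) as percent of the peaks of each class (y axis). Right, median fold enrichment (points) with quartiles (bars) over peaks for each class and list on a log axis, in which 5′-UTR peaks have the highest median in both lists, 8.51 in CCI and 8.21 in sham.

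The position of a peak went with its fold enrichment. The 4932 peaks of the 5′-UTR class had a median fold enrichment of 8.51, the 16719 of the 3′-UTR class 5.92 and the 11905 of the exon class 4.69, and the order was the same in sham (8.21, 5.81 and 4.78). The class is the authors' single label per peak, and a peak over a stop codon or a start carries only 1 of the labels it could have. Of the 5′-UTR peaks, 2891 (58.6%, 95% Wilson interval 57.2 to 60.0%) covered the first base of the named transcript and had a median fold enrichment of 10.4, against 6.34 for the others. Of the 3′-UTR peaks, 2272 (13.6%, 13.1 to 14.1%) covered the last base of the transcript and had a median of 13.8, against 5.21. A further step out, 5769 (34.5%) of the 3′-UTR peaks lay within 500 bp of the transcript end and 14697 (87.9%) within 5000 bp. Peaks at both ends of transcripts were thus stronger than those between, in CCI and in sham, where the medians were 10.5 at the first base and 12.9 at the last. Within the exon class, 7030 peaks (59.1%) were internal with a median of 3.98, 2759 (23.2%) in the last exon with 5.97, 1204 (10.1%) in the first with 5.57 and 912 (7.66%) in transcripts of 1 exon with 7.80.

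Most of the listed genes were protein-coding. Of the 12408 gene names, 10934 were protein-coding in RefSeq, which was 49.9% of all protein-coding symbols. The 425 lncRNA names held 721 peaks with a median fold enrichment of 7.30, against 5.6 for protein-coding genes. A total of 80 names belonged to small RNAs, with 92 peaks, but the bases of 53 of these peaks (57.6%) lay wholly outside the named transcript. For 65 peaks the name began with Mir, 45 of them could be matched to a hairpin in RefSeq and 22 touched it. A small-RNA name in the list was therefore often a label for other exonic sequence of the same locus.

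The length of a peak and its presence in sham both went with the authors' p-value for IP against input. In the 10% of CCI peaks with the lowest p, the median length was 540 bp, the median fold enrichment 13.6 and 64.7% of peaks lay in the 3′-UTR. In the 10% with the highest p, the values were 91 bp, 3.96 and 35.3%. A sham peak lay on the same bases for 3355 of the 3356 peaks with the lowest p and for 1816 of the 3356 with the highest (54.1%). For 129 peaks in 128 genes the p-value was listed as 0 (a log10 of minus infinity), with a median length of 896 bp and a median fold enrichment of 67.4, and all 129 overlapped a sham peak. They are counted among the 10% with the lowest p. The sham list held 0 such peaks, although finite log10 p reached -73300 in sham and -50100 in CCI. These entries may therefore not mark the lowest p, and their origin was not tested.

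**Figure D4:**
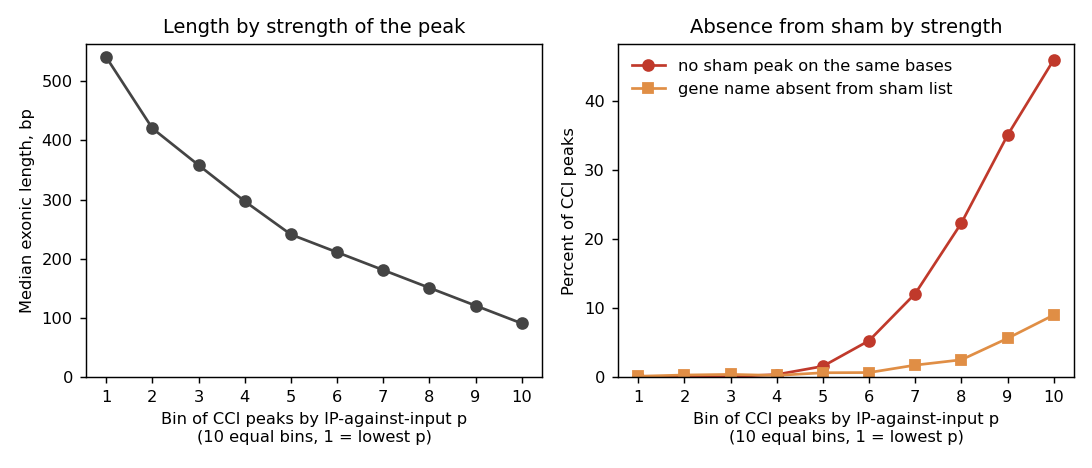
CCI peaks in 10 equal bins by the authors' p-value of IP against input (x axis, 1 for the lowest p). Left, the median exonic length in bp goes from 540 to 91; right, the percent of peaks with no sham peak on the same bases and the percent whose gene name is absent from the sham list (9.0 in the last bin) both increase toward the weakest peaks.

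A total of 647 gene names of the CCI list had no row in the sham list, 5.21% of the 12408 names (95% Wilson interval 4.84 to 5.62%). In the other direction, 1146 of the 12907 sham names (8.88%) were absent from CCI. The 647 names held 719 peaks, and 603 of them (93.2%) had a single peak, against 34.5% of the 11761 names found in both lists. Their peaks were short, with a median of 121 bp against 239 bp, and their median log10 p was -4.05 against -17.0. A false discovery rate above 0.01 was found for 113 of the 719 peaks (15.7%), against 2.36% of the peaks of names in both lists. The median fold enrichment was close, 5.21 against 5.73. Names of predicted genes and cDNA clones (Gm or Rik) made up 27.8% of the absent names and 8.51% of the others, and 16.7% of the lncRNA names were absent against 3.91% of the protein-coding names.

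The strongest of these names were absent from sham by name and not by position. The 25 absent-name peaks with the lowest p all lay on bases that carried a sham peak under another gene name. Over all 647 names, 96 (14.8%, 12.3 to 17.8%) had such a peak, 102 of the 719 peaks in all, and for 35 of the 102 no base lay within the named transcript. Each of the 10 names with the highest fold enrichment was of this kind. AC149222.1 had 325 in CCI over Setd1a, a histone methyltransferase gene, where the sham peak was listed as Setd1a with 188. That sham peak was shorter (839 bp against 1468 bp). Trpm5, a taste-cell channel, had 210 in CCI over Tssc4, where sham listed Tssc4 with 208. The Tssc4 peak of sham ran over 1786 bp against 655 bp in CCI, and it also covered the other Trpm5 peak, which had 2.64. Fancc, a DNA repair gene, had 67.2 over bases where sham listed 2010111I01Rik (Aopep in RefSeq) with 23.6. The peak of 6330403L08Rik had 57.0 in CCI over Pdgfa, a platelet-derived growth factor, and the sham peak, listed as Pdgfa, had 216 over a longer stretch (1941 bp against 568 bp). Alkbh3os1 had 86.5 where sham listed Gm13889 with 75, Gm22676 had 50.6 where sham listed Aven with 36.0, and Xrra1 had 49.5 where sham listed Spcs2 with 29.1. Gm23772 had 42.7 over B3gnt2 (9.27 in sham), 4930515G01Rik had 34.4 over Ankrd13a (66.2 in sham), and Gm15718 had 31.6 over Zranb1, which sham listed as Fgfr2 with 24.5. The sham peak over B3gnt2 was also shorter than that of Gm23772 (1137 bp against 1765 bp). The peaks of these 10 names were found in both libraries under 2 names.

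The other 551 absent names had no sham peak on any of their bases. Their 610 peaks had a median fold enrichment of 5.21, against 4.71 for the 109 peaks of the 96 names with a sham peak. The highest fold enrichment was lower (31.3 against 325) and the median log10 p was nearer 0 (-3.74 against -16.6). Among the 10 strongest of them by fold enrichment, chosen after the values were seen, were Cib1, a calcium- and integrin-binding protein, with 31.3 over 210 bp, Nae1, a subunit of the NEDD8-activating enzyme, with 20.3 over 61 bp, and Vmp1, an autophagy membrane protein, and Steap3, an iron reductase, with 19.3 each. Cd9, a tetraspanin, had 18.2 over 179 bp of the 5′-UTR. A peak of 61 bp is among the shortest the list holds, so 2 of these 5 rest on the smallest stretches that were called.

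Several peaks on 1 absent gene were rare. Cdnf, which encodes a neurotrophic factor, had 3 peaks with 18.2, 12 and 8.34, and Cpne7, a calcium-dependent membrane-binding protein, had 3 with 4.95, 2.35 and 17.2. Neither had a sham peak on these bases. Csf3r, the receptor for granulocyte colony-stimulating factor, had 2 peaks with 9.73 and 6.60, Gpalpp1 had 2 with 3.16 and 2.56, and Fam96b (Ciao2b in RefSeq), a factor of iron-sulfur assembly, had 2 with 1.69 and 2.82, all without a sham peak there. A further 4 names of this ranking, 6330403L08Rik, Trpm5, Alkbh3os1 and Scand1, each had at least 1 peak on bases with a sham peak. Absence from a list of called peaks in 1 library does not show that the RNA or its m6A was absent in sham.

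By position, 4122 CCI peaks (12.3%, 95% Wilson interval 11.9 to 12.6%) had no sham peak on the same bases, and 3505 of them lay in 2801 genes that the sham list also names. These 3505 peaks had a median fold enrichment of 3.00 and a median length of 120 bp, and 5.68% of their genes had no other CCI peak. The 5 with the lowest p, chosen after their values were seen, were in mt-Nd5, Kif1b, Tmsb4x, Smarca2 and Meg3. The mt-Nd5 peak, in a mitochondrial gene of complex I, had a fold enrichment of 1.28 over 61 bp, and the Meg3 peak, in an imprinted lncRNA, 1.43 over 91 bp. Kif1b, a kinesin of axonal transport, had 2.03 and Smarca2, a chromatin remodeller, 2.21. Tmsb4x, which encodes an actin-sequestering peptide, had 13.4 over 91 bp of the 5′-UTR. A low p in this list thus did not require a high fold enrichment.

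The tissue label was checked against marker lists of the cell types of spinal cord. The libraries come from bulk tissue, in which fewer cells of a type and less RNA per cell cannot be told apart, and a gene with no peak may be expressed but unmethylated or too low for a call. Of 116 members of the 9 gene lists, 93 had a CCI peak and all 93 were also named in the sham list. For comparison, 49.9% of all protein-coding RefSeq symbols had a CCI peak, whether or not they are expressed in spinal cord. Over all 12408 CCI names, 5.21% were absent from sham. For the list members, 13 of 272 shared peaks (4.78%) were at least 2-fold higher in CCI and 16 (5.88%) at least 2-fold lower, against 8.59% and 7.25% of all shared peaks.

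Neuron markers had a CCI peak in 13 of 14 members, with a median of 3 peaks per gene and a median strongest fold enrichment of 14.1. Over all genes of the CCI list these were 2 and 11.5, and in genes with 3 to 5 peaks the median strongest value was 15.1. Over the list, 1 of 51 shared peaks was at least 2-fold higher in CCI and 3 were at least 2-fold lower. Rbfox3, the NeuN gene, had 8 peaks, the strongest with 19.5 in CCI and 15.2 on the same bases in sham. A 5′-UTR peak of Rbfox3 had 10.5 in CCI and 21.7, its highest sham value, in sham. Nefh, the heavy neurofilament, had 34.7 and 35 at its strongest peak. Another Nefh peak, with 17.7 in CCI and 8.25 in sham, was the 1 shared peak of the list at least 2-fold higher. Gad1, which makes GABA, had a single peak with 14.4 in CCI and 43.0 in sham, more than 2-fold lower in CCI. Slc6a5, the glycine transporter of inhibitory neurons, had 19.0 and 14.5. No peak was listed for Nefl, the light neurofilament, but 4 of the 6 peaks listed as Nefm lay outside Nefm in RefSeq, and 2 of them (fold enrichment 1.31 and 13.8) lay over Nefl.

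All 10 oligodendrocyte and myelin markers had a CCI peak, with a median of 4 peaks per gene and a median strongest fold enrichment of 14.2. Mag, an adhesion molecule of myelin, had 425 in CCI and 677 in sham. Sox10, a transcription factor of the lineage, had 35.8 and 106, and Cnp, a myelin phosphodiesterase, had 34.9 and 84.8, both more than 2-fold lower in CCI.

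Astrocyte markers had a peak in 6 of 8 members, with none for S100b and Aldoc. Gfap, the astrocyte filament, had 346 in CCI and 422 in sham in its 3′-UTR. Slc1a3, a glutamate transporter, had 56.8 in CCI and 14.2 in sham in its 5′-UTR, while its other 2 peaks had 4.21 and 2.99 in CCI and 4.92 and 2.36 in sham. Only the first of these peaks was 2-fold apart.

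Microglia markers had a peak in 11 of 12 members, with none for Trem2. The fractalkine receptor gene Cx3cr1 had 135 in CCI and 103 in sham, and the complement gene C1qa had 154 and 136. Csf1r, a growth factor receptor of microglia, had 182 and 74.4. The complement gene C1qb (17.8 in CCI, 55.4 in sham) and Aif1, which encodes IBA1 (13 and 37.2), were more than 2-fold lower in CCI. Over the list, 2 of 22 shared peaks were at least 2-fold higher and 3 at least 2-fold lower, so the members did not go one way.

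Of 11 markers of peripheral glia, sensory neurons and vessels, 6 had a CCI peak and 8 a sham peak. Scn10a, the Nav1.8 channel of nociceptors, and Mrgprd, a receptor of nonpeptidergic nociceptors, were listed in sham only, with strongest fold enrichments of 8.13 and 19.8. Over all sham names, 8.88% were absent from CCI, and over the 9 gene lists 2 of 95 members with a sham peak were. Of the 17 shared peaks of this list, 1 was at least 2-fold higher in CCI and 1 at least 2-fold lower. Prph, peripherin, had 2 peaks in CCI and 5 in sham. Part of these genes is also expressed within the spinal cord and its roots, and the share of peripheral tissue in the 2 samples was not tested.

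The machinery of m6A itself carried peaks. Of the 11 writers and erasers, 9 had a CCI peak, and Mettl3 and Mettl14, the catalytic core, had none in either list. Zc3h13, a subunit of the writer complex, had the strongest with 321 in CCI and 201 in sham, and another of its exon peaks had 3.30 in CCI and 18.1 in sham. Cbll1, another subunit, had 73.2 and 53.1, and Virma, the scaffold of the complex, had 14.7 and 8.07. The erasers were near the median of the list or below, Fto with 14.1 in CCI and 7.55 in sham and Alkbh5 with 6.25 and 4.27 on the same bases. The other shared peaks of Alkbh5 were lower in CCI, with 4.39 against 7.55 and 4.32 against 4.86. Of the 10 readers, 6 had a CCI peak. Ythdc1, the nuclear reader, had 8 merged peaks in CCI and 6 in sham, the strongest with 30.7 in CCI and 12.1 on the same bases in sham, and Ythdf1, a cytoplasmic reader of translation, had 21.5 and 15.1. Across both lists, 2 of 41 shared peaks were at least 2-fold higher in CCI and 1 was at least 2-fold lower.

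Injury-response genes had a CCI peak in 11 of 17 members, and 1 of their 20 shared peaks was at least 2-fold higher in CCI and 2 were at least 2-fold lower. The cytokine and chemokine genes Il1b, Il6, Tnf, Ccl2 and Cxcl10 and the neuropeptide gene Gal had none in either list. Atf3, a transcription factor of axon injury, had 2 peaks in CCI with 4.37 and 2.98 and 1 in sham with 4.07. Gadd45a, a stress-response gene, had 34.9 in CCI and 16.3 in sham in its 5′-UTR. Csf1, the ligand of the microglial receptor, had 25.8 and 20.3, and Npy, a neuropeptide, had 16.8 and 10.7. In the other direction, Socs3, an inhibitor of cytokine signalling, had a 3′-UTR peak with 4.08 in CCI and 19.5 in sham. Sox11, a transcription factor of neurite growth, had 7.12 and 15.7 in an exon and 10.9 and 18.6 in its 5′-UTR. Sprr1a, a gene of regenerating axons, had 12.2 and 15.1, the immediate-early gene Fos 4.54 and 6.01, and Stat3, a transcription factor of cytokine signalling, 2.72 and 4.07. Jun, a transcription factor of the injury response, shows how names can decide a comparison. Its strongest CCI peak (chr4:95049809-95050524) had 181, and the strongest sham peak listed as Jun had 5.23. The sham list gave the stretch over that CCI peak to Junos, with 365 over 2086 bp against 716 bp in CCI. Against that sham peak the log2 ratio of CCI over sham was -1.01, but the 2 values refer to different stretches. The same sham peak also covered the other CCI peak listed as Jun, which had 2.43.

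The genes of nociceptive signalling in the dorsal horn had a CCI peak in 21 of 23 members with a median of 4 peaks per gene and a median strongest fold enrichment of 16.7. Among glutamate receptors, Grin2d had 55.9 in CCI and 66.2 in sham, Grin2b 29.7 and 58.1, Gria3 29.7 and 15.4, and Gria2 18.3 and 11.3, and none of these peaks was 2-fold apart, Grin2b coming closest (log2 ratio -0.97). Among kinases, Mapk3 (ERK1) had 71.9 and 128 and Camk2a 11.1 and 17.8. Nos1, the neuronal nitric oxide synthase, had 26.6 in CCI and 3.98 on the same bases in sham (log2 ratio 2.74), the widest gap in the list. The amount of input at this Nos1 peak is not known for either group. Tacr1, the substance P receptor, had 45.9 in CCI and 17.1 in sham at its strongest CCI peak, and 42.2 in CCI and 95.3 in sham at another. Oprm1, the mu opioid receptor, had 4 peaks in CCI, none above 4.52, and 5 in sham, up to 10.8, and its peak with 2.72 in CCI and 6.13 in sham was more than 2-fold lower. Bdnf, a neurotrophin, had 16.7 and 15.2, and its receptor Ntrk2 had 10 peaks in each list. No peak was listed for Tac1, the substance P precursor gene. Over the list, 4 of 64 shared peaks (6.25%) were at least 2-fold higher in CCI and 3 (4.69%) at least 2-fold lower.

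**Figure D5:**
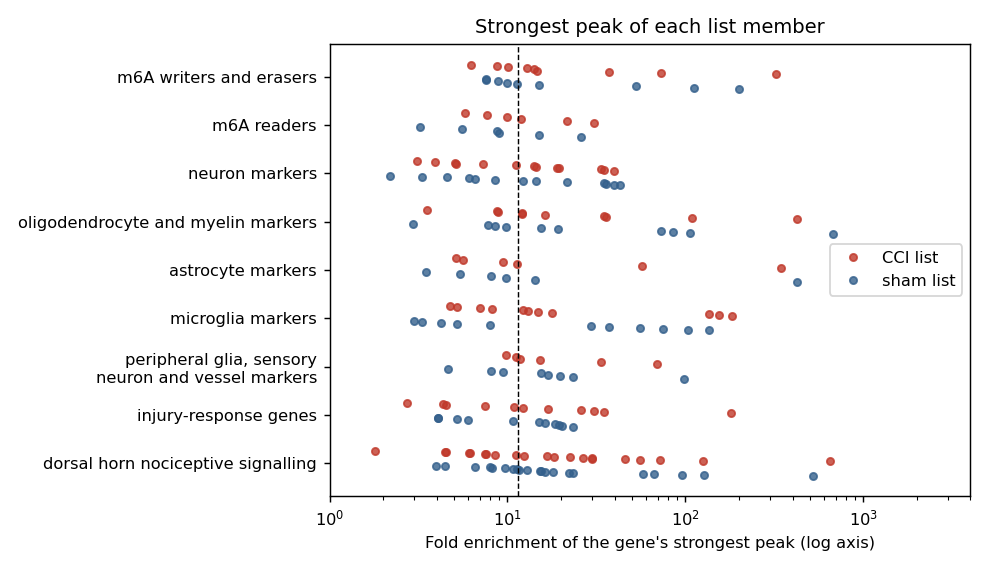
Fold enrichment of the strongest peak (x axis, log scale) of each member with a peak, by gene list (y axis), with 1 point per gene for the CCI list and 1 for the sham list; vertical offsets only separate the points. The dashed line is the median strongest fold enrichment over all genes of the CCI list (11.5), and in every list the CCI and sham points cover overlapping ranges.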

How the data were processed

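The authors purified poly(A) RNA, fragmented it, captured m6A with an antibody and sequenced 1 IP and 1 input library per group. Per the labels, the submitters' processing notes name fastp, HISAT2, HOMER and ChIPseeker and the build GRCm38, whereas the methods name Cutadapt, bowtie, MACS2 and ChIPseeker. The column names of the deposited lists are those of exomePeak. The use of strand in peak calling is not given in the sources used here.

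The deposited fold enrichment is the authors' ratio of IP over input. The authors' p-value is per peak, for IP against input, and its log10 and that of the false discovery rate were handled as a deposited score, because some are minus infinity. The deposited differential table holds the authors' own comparison (fold changes and p-values) and was not used.

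Peaks were compared by exonic blocks (overlap of at least 1 bp). Shared peaks were each other's best partner by shared over joined bases, and "called" meant 2-fold apart. Peaks of a gene that overlapped were merged. Of 12408 CCI gene names, 11568 were RefSeq symbols (GRCm38.p6). The members and gene lists were chosen with earlier results of these data known. Named genes were the 10 with the most peaks, the 10 strongest (in the whole list, and in its top 10% by IP against input), the 10 longest, among absent names the 10 strongest and the 10 with most peaks, and list members, of which some are not reported here. Shares carry 95% Wilson intervals. The steps were tested on simulated data in Python 3.11.15, with scipy 1.17.1, pandas 2.3.3 and numpy 2.4.6 for the values and matplotlib 3.10.9 for the plots.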

Additional observations from a re-analysis of the deposited data

How the results depend on the processing

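No paired analysis was possible because a single IP and a single input per group leave nothing to pair. The cause of the shifts below was not tested, beyond what each setting leaves out. Counting every row moved the genes with 1 peak from 37.6% to 35.2%, and keeping only peaks in the RefSeq gene of that name (a choice made after the data were seen) moved them to 35.4%. A fold enrichment of at least 2 moved them to 39.8% and left 59 genes with more than 10 peaks in place of 100. That minimum also gave a median fold enrichment of 6.40, a median length of 240 bp, 34.6% of peaks in exons and 15.4% in 5′-UTRs. The strongest peak of each gene had a median of 11.5. The median length was 271 bp as genomic span and 239 bp at a false discovery rate below 0.01. Counting each gene and region a single time gave 47.5% 3′-UTR, 32.7% exon and 19.9% 5′-UTR. The count of 647 names absent from sham ranged from 467, without Gm and Rik names, to 732, for genes with no sham peak on the same bases whatever its name, of which 551 were among the 647. Of the shared peaks, 8.08% were at least 2-fold higher and 6.22% at least 2-fold lower with 50% of both peaks shared, 8.16% and 7.62% after centring on the median, and 4.92% and 2.52% in the top 10% by IP against input (chosen after the data were seen).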
